A study of Homo sapiens with 4 samples.

Results

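The heterogeneous nuclear ribonucleoprotein (hnRNP) genes HNRNPA1, HNRNPA2B1, HNRNPC, HNRNPD, HNRNPF, HNRNPH1, HNRNPK, HNRNPL, HNRNPM and HNRNPU were chosen by symbol from a table of 64873 gene entries. Where several entries held a symbol, the one with the most counts on average was used, which gave 10 entries for the 10 genes. All 10 were among the more strongly expressed genes of the cells. At the gene level, none of the 10 passed the test for a difference in expression between SF1-8 and DMSO. Of all 26167 entries tested, only 11 (0.0420%) passed, so this is not particular to these genes. The largest difference among the 10 was that of HNRNPH1, a protein that binds runs of guanines. It was at 0.846 times the DMSO level, with a 95% interval from 0.664 to 1.08. HNRNPA1, HNRNPC and HNRNPH1 varied more between libraries than the other members, and in each of the 10 genes the replicates of at least 1 group lay further apart than the group means did. The share of all entries with such a gap was not computed, so it cannot be called particular to these genes.

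The libraries were made from K562, an established human erythroleukemia line, in which the mutant S34F of the splicing factor U2AF1 was overexpressed. The controls received DMSO, the solvent, and the treated cells received 30 μM SF1-8, an inhibitor of the U2AF homology motif (UHM) of U2AF1, for 48 h, while the protocol that the groups share names no separate time for DMSO. There were 2 libraries per group, so the mutant was present in all 4 libraries and its effect cannot be read from them. The design asks how SF1-8 changes the expression of genes in these cells. The promoter that drives the mutant and whether the line is a single clone are not given in the sources used here, and nothing in the labels says that the 2 libraries of a group came from separate cultures, so the p-values below measure the spread between these libraries, which may be technical.

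The hnRNP proteins coat nascent transcripts in the nucleus. Most carry several RNA-binding domains, each recognising a short and degenerate sequence, and many act on splice sites as a counterweight to the SR proteins, while others act in mRNA export, stability and translation. HNRNPC is known for binding uridine tracts near 3′ splice sites, where it can compete with the large subunit of U2AF, the partner of U2AF1. Many hnRNP genes give several proteins by alternative splicing and regulate their own transcripts through the same route.

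Several members are annotated with a pair of proteins that differ by 1 coding segment, and the gene values below add up the transcripts with and without it. The segments of HNRNPA2B1, HNRNPC and HNRNPD are shown because they mark the products that these values cannot tell apart, and transcript values were not analysed here. They were read from GENCODE 29 transcripts on GRCh38, in the direction of the gene, with the segment in capitals and 10 bases of the neighbouring coding sequence on each side in lower case. The HNRNPA2B1 exon (chr7:26197831-26197866, minus strand) is the one that sets B1 apart from A2. The HNRNPC segment (chr14:21230958-21230996, minus strand) is the part of an exon that sets C2 apart from C1. HNRNPD has 2 such exons, the first at chr4:82371528-82371584 and the second at chr4:82356537-82356683, both on the minus strand, whose use gives the AUF1 isoforms.
HNRNPA2B1 exon: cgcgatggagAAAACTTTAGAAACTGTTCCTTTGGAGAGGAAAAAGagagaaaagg
HNRNPC part of exon: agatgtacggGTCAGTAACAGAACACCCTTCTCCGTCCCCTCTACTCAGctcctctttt
HNRNPD first exon: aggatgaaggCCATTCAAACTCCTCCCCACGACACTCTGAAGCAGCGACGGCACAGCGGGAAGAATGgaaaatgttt
HNRNPD second exon: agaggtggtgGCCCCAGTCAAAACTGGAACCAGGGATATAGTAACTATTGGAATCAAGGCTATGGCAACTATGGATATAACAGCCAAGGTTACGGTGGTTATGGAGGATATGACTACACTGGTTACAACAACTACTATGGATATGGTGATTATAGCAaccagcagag
The segments are 36, 39, 57 and 147 bases long in the order shown.

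The total count per library was 45522905 in DMSO 1 and between 64305922 and 67554610 in the other 3. The erythroid markers of K562 were expressed in all 4 libraries, with GATA1 between 75.9 and 79.1 and TFRC between 95.7 and 116 FPKM (fragments normalized for transcript length and library depth). None of the 9 entries that hold these 11 markers passed a p of 0.05, adjusted or not, in edgeR's quasi-likelihood test. Of 13 markers of other blood, epithelial and stromal cells, MPO was at 0 in all libraries and the summed FPKM was 33.0 and 23.4 in DMSO against 22.3 and 21.1 in SF1-8, most of it from EPCAM and LYZ. The stromal COL1A1 was at 5.39 and 2.60 FPKM in DMSO and at 1.21 and 0.098 in SF1-8, with an unadjusted p of 0.063 in edgeR's test. In that test 5 other stromal markers (COL1A2, COL3A1, DCN, LUM and PDGFRB) were lower with SF1-8 at an unadjusted p under 0.05. None of them passed after adjustment there, but for COL1A2 and LUM this depended on the fit. The paper lists COL1A1, COL1A2 and COL3A1 among its down-regulated genes. The part of these cells or transcripts in the values of the hnRNP genes was not tested. U2AF1 itself was at 11.4 and 11.5 FPKM in DMSO and at 11.9 and 12.0 in SF1-8, a value that does not separate endogenous from mutant transcripts.

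HNRNPA1 and HNRNPF were the most abundant members per length, at a mean of 124 and 115 FPKM over the 4 libraries, and HNRNPH1 was the least abundant at 19.4 FPKM. Between them came HNRNPA2B1 at 68.5, HNRNPK at 63.3, HNRNPC at 60.8, HNRNPL at 34.4, HNRNPM at 30.3, HNRNPD at 30.1 and HNRNPU at 21.5 FPKM. Ranked by FPKM among the 26167 entries tested, the members lay between rank 142 for HNRNPA1 and rank 1437 for HNRNPH1. Neighbours in this order whose ranges over the 4 libraries overlapped were HNRNPA1 with HNRNPF, HNRNPK with HNRNPC, HNRNPM with HNRNPD and HNRNPU with HNRNPH1, so the order within these pairs is not beyond the spread. The level of HNRNPL is that of an entry that also covers ECH1, a gene of fatty acid breakdown next to it, and the entry of HNRNPK also names the microRNA gene MIR7-1.

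**Figure D1:**
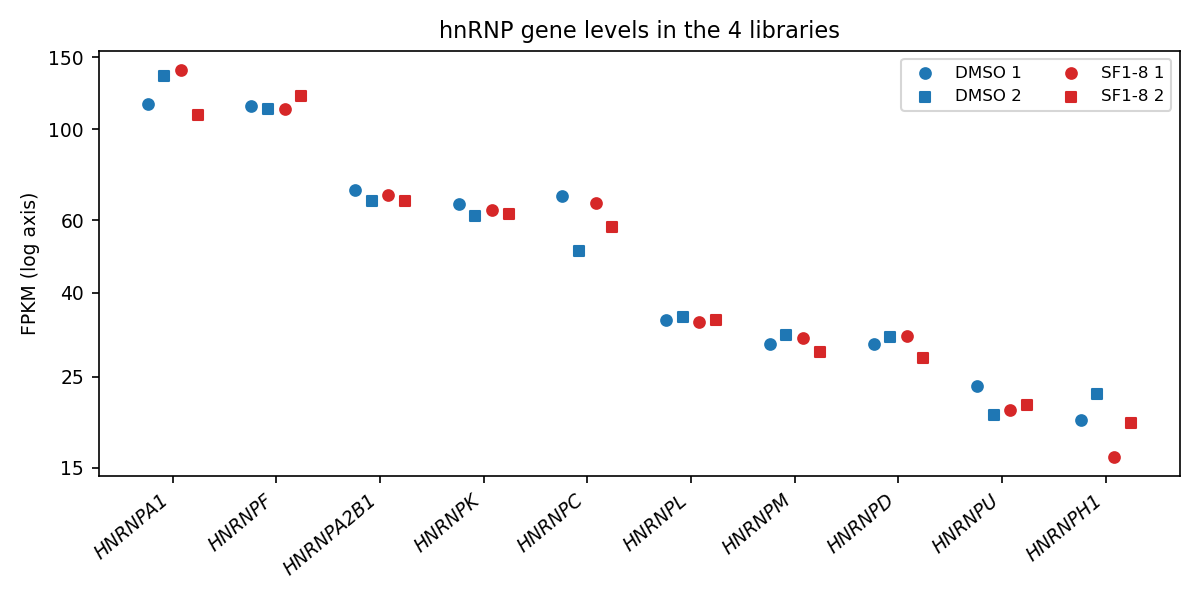
FPKM of each hnRNP gene on a log axis, with 1 point per library (blue DMSO, red SF1-8, circles replicate 1, squares replicate 2). The genes run from about 124 FPKM for HNRNPA1 to 19.4 FPKM for HNRNPH1, and the 4 points of most genes lie close together while those of HNRNPA1, HNRNPC and HNRNPH1 spread.

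The summed FPKM of the 10 genes was 573 and 567 in DMSO against 584 and 547 in SF1-8, so the treated libraries held both the highest and the lowest sum. Together they held between 0.472% and 0.509% of the counts of a library. HNRNPA1 made up 19.8% to 23.9% of the summed FPKM, HNRNPF 19.2% to 22.1%, HNRNPC 8.91% to 12.0% and HNRNPH1 2.73% to 4.01%.

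In the test of SF1-8 against DMSO, none of the 10 members passed an adjusted p of 0.05 in the quasi-likelihood test of edgeR, with p-values adjusted by Benjamini-Hochberg, where 11 of all 26167 entries tested (0.0420%) did. Of those, 0.0229% of all entries were lower and 0.0191% higher with SF1-8. None passed an unadjusted p of 0.05 either, against 4.33% of all entries, and the lowest p of a member in edgeR's test was 0.138. DESeq2 called 0.627% of the entries after adjustment and 4.43% before, and none of the members in either case. Of the 10 log2 fold changes, 4 were below 0 and 6 above, where 51.6% of all entries were below 0, with a median of 0.003 beside -0.01 over all entries tested. Since these are bulk libraries, fewer cells of a type and less RNA per cell cannot be told apart in any of these values.

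The sizes of the differences were small for all 10 genes. Each log2 fold change lay within 0.25 of 0, as did 53.8% of all entries and 89.5% of the 1000 entries with the highest FPKM. The median absolute log2 fold change was 0.018 for the members, 0.069 for those 1000 entries and 0.22 for all entries. With sign, the median was 0.003 for the members and 0.049 for those 1000 entries. Those entries were thus shifted upwards as a set, so their absolute median does not measure spread alone. In 8 of the 10 members the log2 fold change was smaller than its standard error. The 95% intervals lay within 2-fold of no change for all 10 members and within 1.5-fold for 9, with HNRNPH1 as the exception. The narrowest intervals were those of HNRNPA2B1, HNRNPK and HNRNPF, and the widest those of HNRNPA1, HNRNPC and HNRNPH1.

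**Figure D2:**
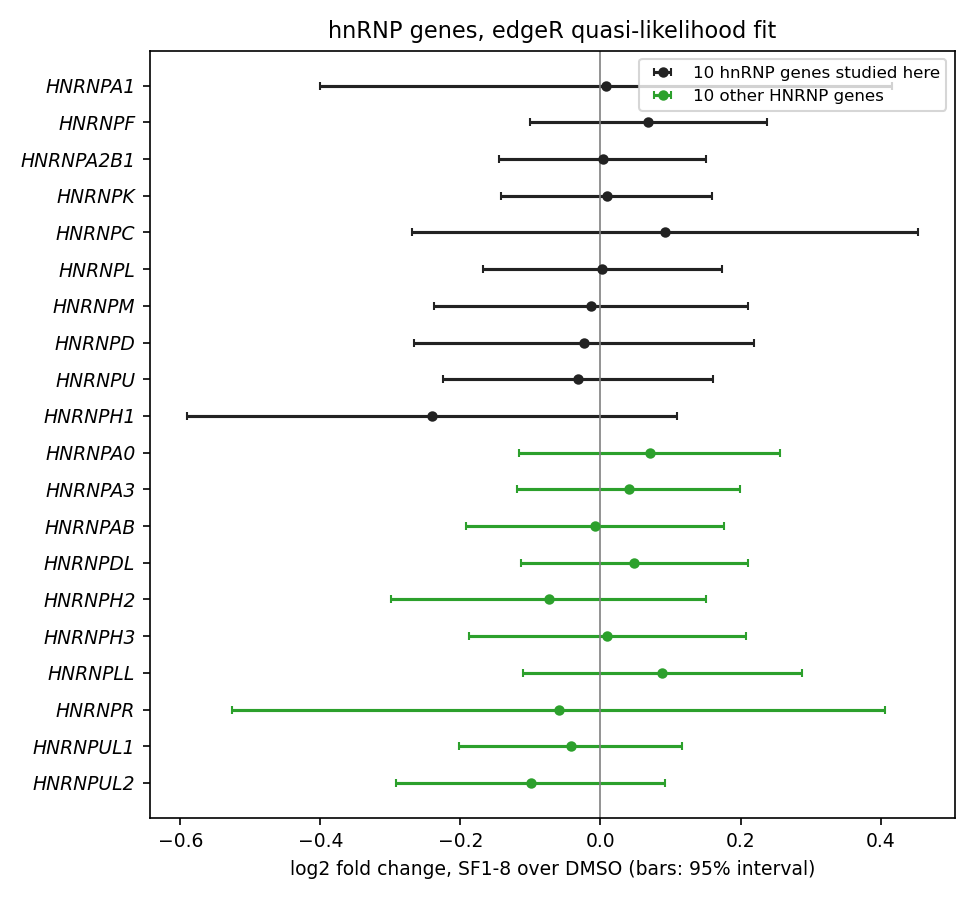
Log2 fold change of SF1-8 over DMSO from edgeR's quasi-likelihood fit for the 10 hnRNP genes (black) and 10 further genes with an HNRNP symbol (green), where bars are 95% intervals. All 20 intervals include 0, and the lowest black point is HNRNPH1 at -0.24.

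HNRNPA1, a splicing repressor that binds silencers in exons and introns and shuttles between nucleus and cytoplasm, is annotated at chr12:54280193-54287088 on the plus strand. It was at 116 and 135 FPKM in DMSO and at 139 and 108 FPKM in SF1-8. The highest and the lowest value were both from treated libraries, and the group means of 125 ± 13.7 and 124 ± 22.2 FPKM (SD, n = 2) nearly coincided. The log2 fold change was 0.01 ± 0.16 (SE), with a 95% interval from -0.40 to 0.42 (adjusted p = 0.999 in edgeR's test). Without SF1-8 replicate 1 it was -0.19 and without SF1-8 replicate 2 it was 0.19.

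HNRNPA2B1 (chr7:26173057-26201301, minus strand), the closest relative of HNRNPA1 in this group and known for sorting RNAs in the cytoplasm and into vesicles, spread less between libraries. Its FPKM was 71.2 and 66.9 in DMSO and 69.0 and 66.7 in SF1-8, so the groups overlapped. The log2 fold change was 0.003 ± 0.058 (SE), and the 95% interval of the fold ran from 0.905 to 1.11. The ratio of HNRNPA1 to HNRNPA2B1 was 1.62 and 2.02 in DMSO against 2.02 and 1.62 in SF1-8. It thus took the same high and low values in both groups (exact permutation p = 1, two-sided).

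HNRNPC (chr14:21209136-21269494, minus strand), the uridine-tract binder, was at 68.7 and 50.5 FPKM in DMSO and at 66.2 and 58.0 in SF1-8. Both treated libraries lay between the control libraries, which held the highest and the lowest value. The means were 59.6 ± 12.9 and 62.1 ± 5.81 FPKM (SD, n = 2), and the log2 fold change was 0.09 ± 0.14 (SE) with an interval from -0.27 to 0.45. It was 0.29 without DMSO replicate 1 and -0.07 without DMSO replicate 2. The ratio of HNRNPC to its paralog RALY, another binder of uridine-rich RNA, was 6.61 and 4.69 in DMSO against 5.99 and 5.38 in SF1-8, with the extremes again in the controls. RALY itself had 10.4 and 10.8 FPKM in DMSO and 11.04 and 10.8 in SF1-8.

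HNRNPF and HNRNPH1 encode related proteins that bind runs of guanines and act as enhancers or silencers of splicing by position. HNRNPH1 (chr5:179614178-179634784, minus strand) was at 19.6 and 22.7 FPKM in DMSO and at 15.9 and 19.3 in SF1-8. On FPKM both treated libraries were below both controls, but on the count scale normalized by TMM (trimmed mean of M values) and by library size (CPM) the values were 250.02 and 307 CPM in DMSO against 214 and 257 in SF1-8, so the groups overlapped there. The means were 21.1 ± 2.23 and 17.6 ± 2.36 FPKM (SD, n = 2). The log2 fold change was -0.24 ± 0.14 (SE), with an interval from -0.59 to 0.11 (adjusted p = 0.970 in edgeR's test). It kept its sign in all 15 alternative analyses, from -0.40 to -0.08, and it was nearest to 0 without DMSO replicate 2. In a band of 1308 entries of like level, the 5th to 95th percentiles of the log2 fold change were -0.22 and 0.27, so HNRNPH1 lay just below the band.

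**Figure D3:**
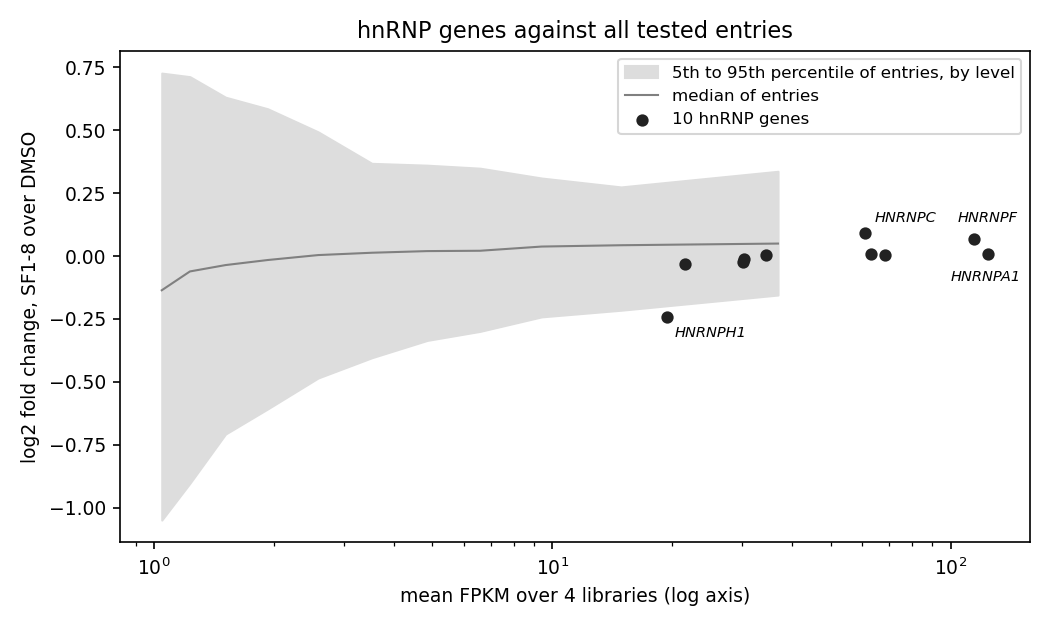
Log2 fold change of SF1-8 over DMSO against mean FPKM on a log axis, for the 10 hnRNP genes (points). Grey is the 5th to 95th percentile, and the line the median, of all tested entries in bins of level above 1 FPKM. Each bin is drawn at its median level. The band therefore ends at 36.9 FPKM, and HNRNPA1, HNRNPF, HNRNPA2B1, HNRNPK and HNRNPC lie to the right of its end. HNRNPH1 lies just under the lower edge at -0.24, and the other 9 genes lie near 0.

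HNRNPF (chr10:43385617-43409166, minus strand) was at 114 and 112 FPKM in DMSO and at 112 and 121 in SF1-8. SF1-8 2 stood above the other 3 libraries, which were close to each other, and the log2 fold change was 0.07 ± 0.07 (SE). The ratio of HNRNPH1 to HNRNPF within a library was 0.171 and 0.203 in DMSO and 0.142 and 0.160 in SF1-8. It was lower in both treated libraries by 0.31 on the log2 scale, with an exact permutation p of 0.333 (two-sided), the smallest that 2 against 2 libraries can give. The ratio of HNRNPH1 to HNRNPH2, a closer paralog whose entry also covers RPL36A, was 1.06, 1.41, 1.05 and 1.14, and its groups overlapped.

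HNRNPD, also known as AUF1, binds AU-rich elements and promotes the decay of the mRNAs that hold them. Its FPKM was 30.1 and 31.2 in DMSO and 31.4 and 27.7 in SF1-8 (chr4:82352498-82374503, minus strand). The treated libraries held the highest and the lowest value, and the log2 fold change was -0.02 ± 0.10 (SE). Its ratio to the related HNRNPDL was 1.06 and 1.16 in DMSO and 1.14 and 0.976 in SF1-8.

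HNRNPK, a KH-domain protein that binds cytosine-rich RNA and DNA, was at 65.8 and 61.6 FPKM in DMSO and at 63.5 and 62.3 in SF1-8 (chr9:83968083-83980604, minus strand). Both treated values lay between the controls, and the fold had an interval from 0.906 to 1.12. HNRNPL, which binds CA repeats, had the narrowest spread of the family, with 34.4 and 35.0 FPKM in DMSO and 33.98 and 34.2 in SF1-8 (entry at chr19:38815422-38852569, minus strand). The treated values were below the controls on FPKM but not on CPM, and the fold had an interval from 0.890 to 1.13. HNRNPH1 and HNRNPL were the only members whose groups did not overlap on FPKM, both lower with SF1-8, where 20.0% of all entries were lower and 14.2% higher without overlap. On normalized CPM all 10 members overlapped, while 35.5% of all entries did not.

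HNRNPM, which binds GU-rich RNA, was at 29.9 and 31.6 FPKM in DMSO and at 31.1 and 28.7 in SF1-8 (chr19:8444767-8489114, plus strand). HNRNPU, also known as scaffold attachment factor A and a binder of chromatin as well as RNA, was at 23.8 and 20.1 FPKM in DMSO and at 20.7 and 21.3 in SF1-8 (chr1:244840638-244864560, minus strand). For HNRNPM the lowest value was that of SF1-8 2, and for HNRNPU the controls held both extremes. Their log2 fold changes were -0.01 ± 0.09 and -0.03 ± 0.08 (SE). The adjusted p over the 10 members lay between 0.970 and 0.999 in edgeR's test.

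Libraries could be compared gene by gene through the log2 deviation of each FPKM from the mean of the gene. The 2 DMSO libraries differed by 0.45 for HNRNPC, by 0.24 for HNRNPU and by 0.09 for both HNRNPA2B1 and HNRNPK, each higher in DMSO 1. HNRNPA1 and HNRNPH1 went the other way between the same libraries, with -0.22 for each as DMSO 1 minus DMSO 2. The 2 SF1-8 libraries differed by 0.37 for HNRNPA1, 0.19 for HNRNPC and 0.18 for HNRNPD, each higher in SF1-8 1, and by -0.27 for HNRNPH1, which was lower there. No library was therefore high or low for the whole family. DMSO 1 held the highest value of 4 genes, DMSO 2 of 3, SF1-8 1 of 2 and SF1-8 2 of 1, and the lowest values were those of DMSO 2 for 4 genes, of SF1-8 2 for 4 and of SF1-8 1 for 2.

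**Figure D4:**
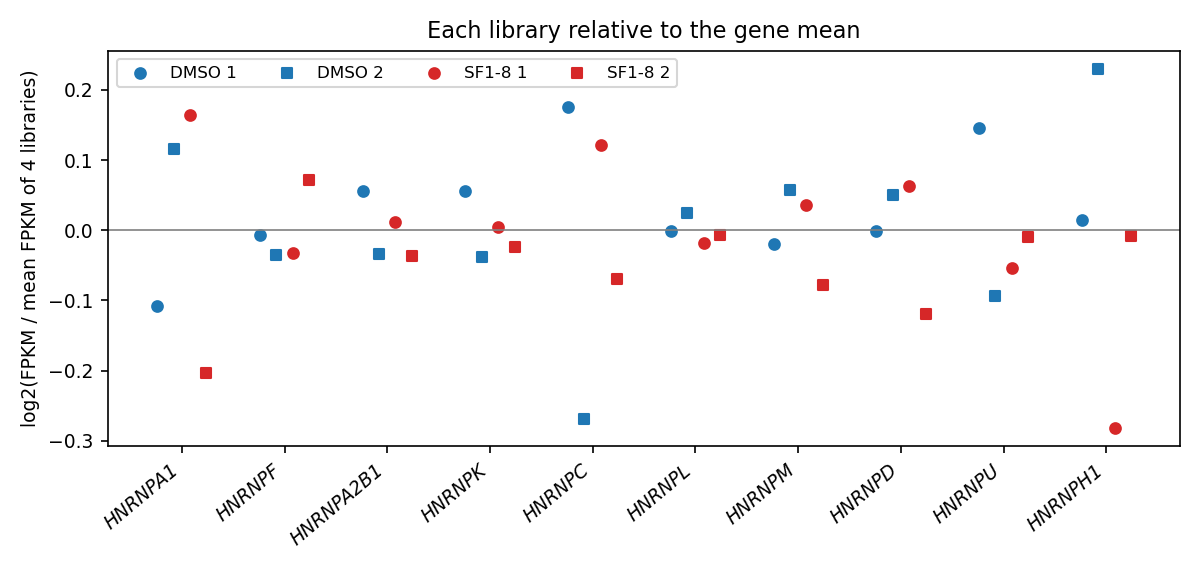
Log2 ratio of the FPKM in each library to the mean over the 4 libraries, for each hnRNP gene (blue DMSO, red SF1-8, circles replicate 1, squares replicate 2). HNRNPC and HNRNPU spread most between the controls, HNRNPA1 between the treated libraries, and HNRNPH1 has its lowest value, -0.28, in SF1-8 1.

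HNRNPA1, HNRNPD and HNRNPM shared one order, with DMSO 2 and SF1-8 1 above the gene mean and DMSO 1 and SF1-8 2 below it. HNRNPA2B1, HNRNPC and HNRNPK shared another, with DMSO 1 and SF1-8 1 above and DMSO 2 and SF1-8 2 below. Both orders cut across the treatment, and only HNRNPH1 had both DMSO libraries above and both SF1-8 libraries below its mean. Of all tested entries, those nearest to HNRNPH1 in centred log2(CPM + 1) over the 4 libraries were PLEKHA7, RPL34-DT and TMEM260. Their root mean square differences were 0.0068, 0.0145 and 0.0183. The added 1 shrinks differences at low counts, and PLEKHA7 and RPL34-DT were below 1 CPM in every library. Relative to its own level PLEKHA7 differed more between replicates, with 0.462 and 0.777 CPM in DMSO against 250.02 and 307 for HNRNPH1. PLEKHA7 was itself at 0.018 to 0.054 FPKM, and TMEM260 was at 0.737 and 0.872 FPKM in DMSO and at 0.594 and 0.754 in SF1-8.

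Reads of these genes can also be counted on near-identical copies, mostly processed pseudogenes. The table held 106 entries naming such copies of the members, of which 103 were entries of a copy alone. Of these, 53 were above 0 and 32 were tested. HNRNPA1P12 was named in separate entries and is counted for each of them. HNRNPA1 had by far the most, with 77 entries naming a copy and 22 tested. The counts on its separate entries came to 13.5% of the mean count of HNRNPA1, against 3.10% for HNRNPC, 2.97% for HNRNPK and 2.02% for HNRNPL. The value of HNRNPA1 is therefore the least certain of the 10 in this respect, since the sources used here do not say how shared reads were assigned. By library, the copies of HNRNPA1 held 14.4% and 12.4% of its count in DMSO and 12.3% and 15.9% in SF1-8, with the larger shares in the libraries where HNRNPA1 itself, the denominator, was lower.

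Among copies with an entry of their own, those with the highest mean counts were HNRNPA1P10 (chr19:11664287-11694967), HNRNPA1P48 (chr16:51553436-51647132) and HNRNPA1P7 (chr18:32412214-32413176). HNRNPA1P10 was at 11.5 and 13.2 FPKM in DMSO and at 11.2 and 12.3 in SF1-8, and HNRNPA1P48 at 10.8 and 10.7 against 10.1 and 11.3. HNRNPA1P7 was at 21.3 and 12.9 FPKM in DMSO and at 27.0 and 12.3 in SF1-8, which is a wider gap between replicates than between groups. HNRNPCP1 had more counts, but in an entry that also covers KIAA0586, at 2.26 and 1.92 FPKM in DMSO and at 1.78 and 1.87 in SF1-8. None of the 32 tested copies passed an adjusted or an unadjusted p of 0.05 in edgeR's test, and 15 of them had a log2 fold change below 0.

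A further 7 entries named a member without being its main entry, and held between 0.123% and 3.33% of the counts of that main entry. One of them lies within HNRNPA2B1 on the opposite strand (chr7:26197029-26197716), with 35.2% of its length in annotated HNRNPA2B1 exons. It was at 8.77 and 6.77 FPKM in DMSO and at 0.412 and 4.42 in SF1-8. Both treated values were lower, but they lay far apart, and the log2 fold change was -1.65 ± 0.95 (SE, adjusted p = 0.970 in edgeR's test). The strand setting of the counting is not given in the sources used here, so reads of the gene and of this entry cannot be told apart. A second entry, within an intron of HNRNPH1 (chr5:179627633-179628310), was at 1.40 and 1.35 FPKM in DMSO and at 0.595 and 0.643 in SF1-8. Its replicates were close to each other in both groups, and its log2 fold change was -1.10 ± 0.36 (SE) with an unadjusted p of 0.028 and an adjusted p of 0.970 in edgeR's test, so it did not pass the threshold. It held 0.323% of the count of the main HNRNPH1 entry, with counts of 55 and 74 in DMSO and 34 and 36 in SF1-8. Another entry within HNRNPH1 and outside its exons (chr5:179632315-179632600) was at 0.367 and 1.70 FPKM in DMSO and at 0.407 and 0.800 in SF1-8. There the groups overlapped, with an unadjusted p of 0.441 in edgeR's test.

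GENCODE 29 lists 50 transcripts of HNRNPH1, of which 26 are labelled protein coding, 16 retained intron and 4 nonsense-mediated decay. HNRNPC follows with 33 transcripts and HNRNPU with 31, of which 10 are labelled retained intron and 9 nonsense-mediated decay. HNRNPF is at the other end, with 7 transcripts and none of either of these classes. HNRNPC and HNRNPH1, with many transcripts, and HNRNPA1, with 14, were the members that varied most between libraries. HNRNPU, with 31, and HNRNPL, with 15, varied less, at a highest over lowest FPKM of 1.18 and 1.03. A link between transcript number and spread was not tested. In RefSeq (GRCh38), 15 promoters from 250 bases before to 50 after the start were at hand for 9 members, several for some of them. The median number of CpG dinucleotides over these 15 was 29, against 14 over 35116 promoters of the table. Those were not matched to the members by expression, so the difference cannot be called particular to this family.

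A further 10 genes with an HNRNP symbol showed no called difference either. All 10 were tested, none passed an adjusted or unadjusted p of 0.05 in edgeR's test, and 5 log2 fold changes lay on each side of 0, from -0.10 to 0.09 with a median of 0.001. The lowest were HNRNPUL2 at -0.10 and HNRNPH2 at -0.07, and the highest were HNRNPA0 at 0.07 and HNRNPLL at 0.09. HNRNPLL, which shares its CA-repeat preference with HNRNPL, was at 9.91 and 9.78 FPKM in DMSO and at 10.1 and 10.4 in SF1-8. The ratio of HNRNPL to HNRNPLL was 3.47 and 3.58 in DMSO and 3.35 and 3.30 in SF1-8, lower in both treated libraries at an exact permutation p of 0.333 (two-sided). Of the 9 ratios between paralogs that were compared, this and the ratio of HNRNPH1 to HNRNPF were the only ones whose groups did not overlap, and the adjusted p over the 9 exact tests was 1 for each.

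Among 28 genes of hnRNP and related RNA-binding proteins with other symbols, 26 were tested and none passed the adjusted threshold in edgeR's test. The log2 fold changes had a median of 0.04, with 9 below 0 and 17 above. PCBP4, a poly(C)-binding relative of HNRNPK, was at 3.38 and 3.26 FPKM in DMSO and at 4.57 and 4.93 in SF1-8. It was the only gene of this list with an unadjusted p under 0.05, at a log2 fold change of 0.54 ± 0.10 (SE, adjusted p = 0.637 in edgeR's test), and it passed the adjusted threshold with DESeq2, at 0.55. Its entry also covers ABHD14B, so the value is not that of PCBP4 alone. The rest of the extremes did not pass: MYEF2 was near or at 0 in every library, with a log2 fold change of 0.67 ± 1.66 (SE). MSI2, a translational regulator, was at 4.90 and 4.03 FPKM in DMSO and at 1.93 and 3.93 in SF1-8 (log2 fold change -0.58 ± 0.33, SE), and TARDBP, which encodes TDP-43, at 13.2 and 8.38 against 9.20 and 8.02 (-0.29 ± 0.20, SE). In each of these, 1 library stood apart, SF1-8 1 for MSI2 and DMSO 1 for TARDBP.

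Genes that act on hnRNP proteins after translation made up a last list. TNPO1 encodes the import receptor of HNRNPA1, PRMT1 the main methyltransferase of arginines in RGG repeats, and CARM1 and PRMT6 further arginine methyltransferases. None of the 7 genes of this list passed an adjusted or unadjusted p of 0.05 in edgeR's test, and the log2 fold changes ran from -0.09 for PRMT1 to 0.11 for TNPO1 and PRMT6. CARM1 was at -0.03. TNPO1 was at 35.6 and 32.8 FPKM in DMSO and at 35.3 and 37.3 in SF1-8, and PRMT1 at 28.8 and 31.3 against 27.0 and 28.4.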

How the data were processed

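RNA-seq libraries of rRNA-depleted total RNA from K562 cells with U2AF1 S34F, 2 with DMSO and 2 with SF1-8, were grouped by their labels. The authors deposited a table of FPKM values, normalized by the authors for length and depth, and of estimated counts, deposited as whole numbers without normalization and with 4 the commonest value above 0. Counting error could therefore not be computed from depth, and the spread between libraries serves as the measure of precision. The submitters' processing notes name cutadapt, FastQC, Bowtie2, HISAT2 and StringTie and the build hg38, and their versions are not given in the sources used here. Identifiers are of the kind that a StringTie merge gives, and 2088 of the 64873 entries name several genes. Entries without a gene name (2095 of them, with 0.372% of the counts) did not enter library sizes or tests.

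Counts were filtered with filterByExpr, normalized by TMM and tested with edgeR's quasi-likelihood test (edgeR 4.0.16, R 4.3.3) across all 26167 entries that passed, with Benjamini-Hochberg adjustment. DESeq2 1.42.0 and limma 3.58.1 on log2 FPKM gave alternatives. The steps were tested on simulated data. Ratios of paralogs were compared by an exact permutation test. For each list, the genes past the adjusted threshold and the 2 highest and 2 lowest fold changes are named, for copies the 3 with the highest mean count among those with an entry of their own (the entry of HNRNPCP1, with more counts, also covers KIAA0586), and for the member with the largest absolute fold change the 3 nearest entries. The named examples of HNRNPR and NONO below, and the further entries of members, were chosen after their values were seen. The members and lists were chosen with earlier results of these data known. The authors' columns of pathway annotation were not used.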

Additional observations from a re-analysis of the deposited data

How the results depend on the processing

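None of the 10 hnRNP genes passed an adjusted p of 0.05 in any of the 15 alternatives (0 in each). The number of all genes that did was 11 with edgeR and moved to 164 with DESeq2, 31 with no filter, 1 with limma on TPM and 0 with limma on log2(FPKM + 1) with or without a filter, on log2(FPKM + 0.1) and after quantile normalization. Leaving out 1 library gave 0 (without DMSO 1) to 30 (without SF1-8 1), with 21 without DMSO 2 and 28 without SF1-8 2. With the replicate number as a block the number was 0, and the block changed no call of a member. The numbers are not stated to pair samples, and the replicate differences of the groups correlated at -0.026 across 15830 genes. The log2 fold changes that changed sign lay near 0 in most cases. With limma on log2(FPKM + 1), with or without a filter, they were HNRNPA1 -0.024, HNRNPA2B1 -0.024, HNRNPK -0.018, HNRNPL -0.023 and HNRNPA1P48 -0.0092. On log2(FPKM + 0.1) they were HNRNPA1 -0.024, HNRNPA2B1 -0.024, HNRNPK -0.019, HNRNPL -0.024 and HNRNPA1P48 -0.010. On TPM, where the median of all genes was -0.13, they were HNRNPA1 -0.16, HNRNPA2B1 -0.16, HNRNPC -0.061, HNRNPF -0.094, HNRNPK -0.15, HNRNPL -0.16, HNRNPA0 -0.089, HNRNPLL -0.072, PRMT6 -0.050, TNPO1 -0.048 and HNRNPA1P48 -0.14. After quantile normalization they were HNRNPA1 -0.079, HNRNPA2B1 -0.061, HNRNPK -0.060, HNRNPL -0.038 and HNRNPA1P48 -0.019. With counts divided by 4 they were HNRNPA1 -0.0040, HNRNPA2B1 -0.0091, HNRNPK -0.0037 and HNRNPL -0.0098, and with all entries of a member summed HNRNPA2B1 -0.0028. With 1 library left out, HNRNPA1 ran from -0.19 to 0.19, HNRNPA2B1 from -0.024 to 0.039, HNRNPC from -0.073 to 0.29, HNRNPD from -0.12 to 0.075, HNRNPK from -0.0072 to 0.034, HNRNPL from -0.050 to 0.062, HNRNPM from -0.090 to 0.073, HNRNPU from -0.10 to 0.050, TARDBP from -0.54 to 0.025, MYEF2 from -0.34 to 7.09, PRMT1 from -0.19 to 0.017, CARM1 from -0.075 to 0.022, HNRNPA1P10 from -0.18 to 0.098, HNRNPA1P48 from -0.051 to 0.095 and HNRNPA1P7 from -0.43 to 0.71. A group left with 1 library was assumed to vary like the other. The cause of these changes was not tested. The main limits are the 2 libraries per group, entries that merge neighbouring genes, and copies that may share reads with a member.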

Other observations

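Among the listed RNA-binding proteins, NONO, a partner of SFPQ in paraspeckles, was at 54.5 and 29.8 FPKM in DMSO and at 53.7 and 31.1 in SF1-8. Replicate 1 was thus well above replicate 2 in both groups, while the group means were nearly equal. HNRNPR had the same order with a smaller gap, at 29.04 and 19.7 FPKM in DMSO and at 24.96 and 20.7 in SF1-8. SFPQ stayed between 57.1 and 59.7 FPKM. NONO and HNRNPR were picked out after their values were seen.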
